A study of Arabidopsis thaliana with 5 samples.

Results

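Transcript levels of 10 regulators of light-controlled growth were compared between the Arabidopsis mutant Atino80-5 and wild type. They are the phytochrome-interacting factor genes PIF1, PIF3, PIF4, PIF5 and PIF7, the shade and growth genes HFR1, PIL1 and ATHB2, and the bZIP genes HY5 and HYH. They were named by locus as known regulators, with no threshold on a measured value but with earlier results of these data known, and all 10 were measured among 26649 genes and unnamed transcripts. The mutant group held 3 arrays and the wild type group 2, each from whole seedlings aged 12 days. Plants of both genotypes stood on MS medium at 22 °C with 16 h of light and 8 h of dark a day, at about 100 µE per square metre and second. The labels describe Atino80-5 only as a mutant, name no treatment in either group, and leave unsaid whether separate cultures were used within a genotype. P-values therefore set the difference between the genotypes only against the scatter of these arrays, and that scatter may be technical. The time of day of harvest is not given in the sources used here.

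PIF proteins are bHLH transcription factors that promote elongation growth in darkness, shade and warmth. Phytochromes activated by red light bind them and bring about their degradation or loss of activity. HFR1 is an HLH protein that pairs with PIFs and keeps them from DNA, PIL1 is a PIF relative that also restrains elongation, and ATHB2 is a homeodomain-leucine zipper factor. All of HFR1, PIL1 and ATHB2 are known as genes that shade induces quickly through PIFs. HY5 and its homologue HYH are bZIP factors that act the other way, promoting photomorphogenesis in light. The ubiquitin ligase around COP1 and the SPA proteins removes them in darkness.

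INO80 (AT3G57300), a chromatin remodelling ATPase gene whose name the mutant carries, was read by 2 probes. One of its probes gave processed signals of 62.2, 55 and 62.9 in Atino80-5, against 9438 and 9289 in wild type, and the other gave 504, 484 and 490 in Atino80-5, against 132 and 124 in wild type. The probes separate the labelled genotypes in opposite directions, and their positions with respect to the mutated site are unknown here. Between 77.3% and 81.6% of the probes on an array were well above background, and the 75th percentile of the processed signal ran from 4478 to 4805. Slide 2 carried Atino80-5 array 3 alone, and slide 1 the other 4 arrays.

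Of the 10 regulators, PIL1, ATHB2, HYH and HY5 rose in Atino80-5, PIF7, PIF4 and PIF3 fell, and PIF1, PIF5 and HFR1 did not pass the test (limma, adjusted p under 0.05). Changes of at least 1.5-fold were found for 4 of them, namely PIL1, ATHB2, PIF7 and PIF4. The 7 calls are 70% of the regulators, beside 57.2% of all genes tested, so the share called lies near the background of this comparison. At least 1.5-fold changes made up 40% of the regulators and 16.2% of all genes, and at least 2-fold changes 10% and 7.23%. Calls of higher levels covered 4 of the 10 beside 30.7% of all genes, and calls of lower levels 3 of the 10 beside 26.4%. The median log2 change was 0.10 over the regulators and 0.01 over all genes, and the median size of the change without its sign was 0.23 and 0.20. Mutant and wild type arrays were fully separated for 9 of the 10 regulators, beside 74.6% of all genes.

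**Figure D1:**
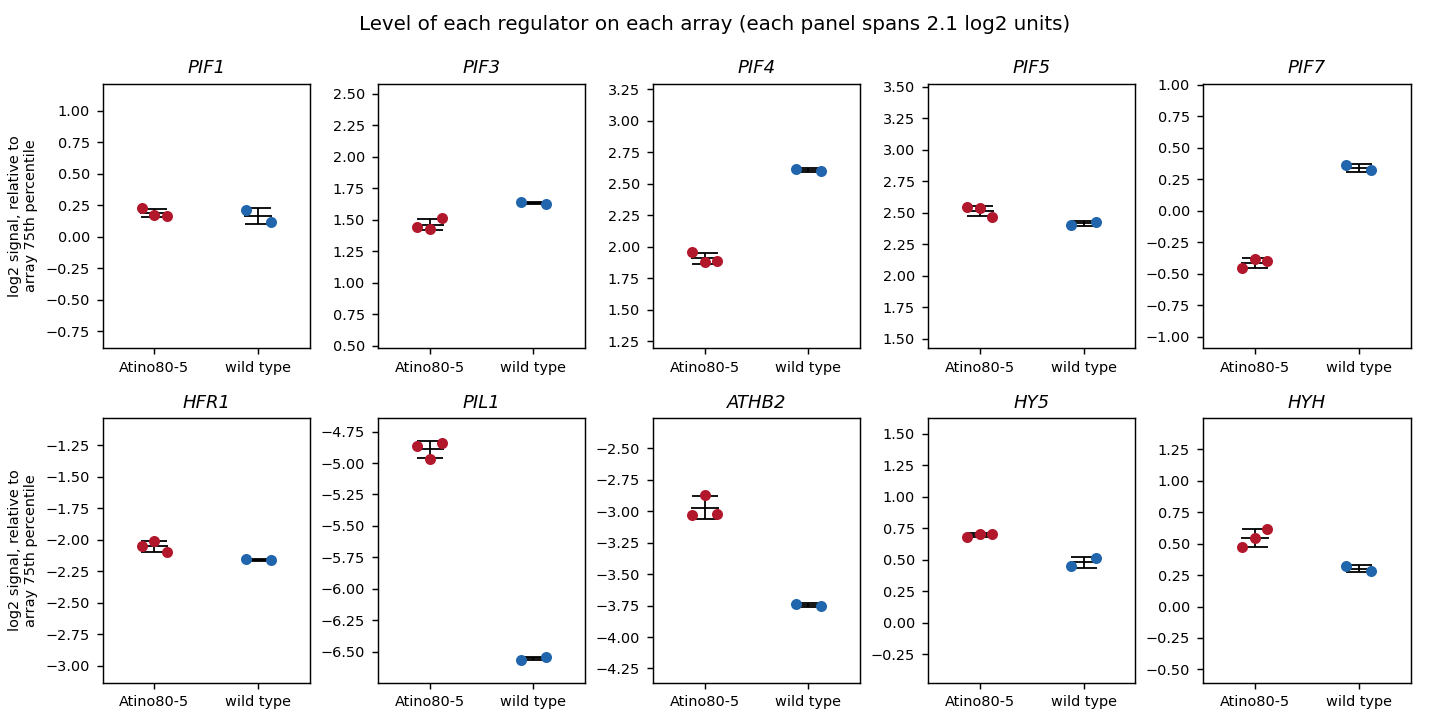
Each panel shows 1 regulator, with the log2 processed signal relative to the array's 75th percentile on the vertical axis and 1 point per array for Atino80-5 (red, left, n = 3) and wild type (blue, right, n = 2). Bars give the mean ± SD, all panels span the same log2 range, and the genotypes lie far apart for PIL1, ATHB2, PIF4 and PIF7 and overlap for PIF1.

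Among the PIF genes, PIF7 and PIF4 fell by similar amounts. PIF7 (AT5G61270) encodes the factor best known for the growth response to shade. Its brighter probe gave processed signals of 3264, 3548 and 3638 in Atino80-5, against 5798 and 5609 in wild type. All 3 mutant arrays lay well below both wild type arrays. The log2 change was -0.76 ± 0.035 (± SE throughout, 3 mutant and 2 wild type arrays), to 0.592 of the wild type level (adjusted p = 0.000155, limma). The second probe gave 246, 266 and 267 in Atino80-5, against 441 and 455 in wild type, and fell by 0.83 ± 0.035. At the level of single probes, 55.5% of all probes tested were called. Both PIF7 probes thus moved the same way without overlap.

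PIF4 (AT2G43010) encodes the factor that drives elongation in warmth and in the diurnal growth rhythm. It was covered by 1 probe, with signals of 17374, 17034 and 17790 in Atino80-5, against 27683 and 27228 in wild type. The arrays of each genotype stayed close together and the genotypes did not overlap. The log2 change was -0.70 ± 0.036, or 0.614 of the wild type level with a 95% confidence interval of 0.575 to 0.656 (adjusted p = 0.000198, limma). Across all genes, 13.8% changed by more than PIF4 and 12.4% by more than PIF7, in either direction. Within slide 1 the log2 changes were -0.69 for PIF4 and -0.76 for PIF7.

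PIF3 (AT1G09530), whose product acts in seedling greening, gave 12185, 12486 and 13702 in Atino80-5, against 14037 and 13874 in wild type. All 3 mutant arrays lay below both wild type arrays, by at least 0.11 on the scaled log2 values. Its log2 change was -0.17 ± 0.036 (adjusted p = 0.0146, limma), and -0.20 within slide 1. Without wild type array 1 or 2 the change was -0.17 or -0.18 and lost its call (adjusted p = 0.081 or 0.0676, limma). The dimmer PIF3 probe gave 522, 555 and 591 in Atino80-5, against 554 and 622 in wild type, so its genotypes overlapped, and it was not called (adjusted p over probes = 0.151, limma).

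PIF5 (AT3G59060), which acts together with PIF4 in the growth rhythm, did not share the fall of PIF4. It had 26147, 26917 and 26653 in Atino80-5, against 23788 and 24238 in wild type. The genotypes did not overlap, but the log2 change of 0.10 ± 0.035 missed the threshold (adjusted p = 0.0644, limma; 95% confidence interval 0.01 to 0.20). Within slide 1, that is without Atino80-5 array 3, it was 0.12 and passed (adjusted p = 0.0413, limma). A second PIF5 probe overlapped between the genotypes, with 1099, 1240 and 1218 in Atino80-5 against 1171 and 1190 in wild type, and had a log2 change of -0.04. The probes of PIF5 therefore differed in sign, both with small values.

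PIF1 (AT2G20180), known for restraining seed germination and chlorophyll synthesis in the dark, was the regulator with the smallest difference. Signals of its brighter probe were 5236, 5218 and 5402 in Atino80-5 and 5216 and 4882 in wild type. Once scaled to each array's 75th percentile, the groups overlapped. The log2 change was 0.02 ± 0.042 with a 95% confidence interval of -0.09 to 0.13 (adjusted p = 0.677, limma). The second probe had a log2 change of 0.08 and also overlapped once scaled. The interval of PIF1 ended well short of the changes of PIF4 and PIF7. Whether the changes of 2 PIF genes differed from each other was not tested.

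**Figure D2:**
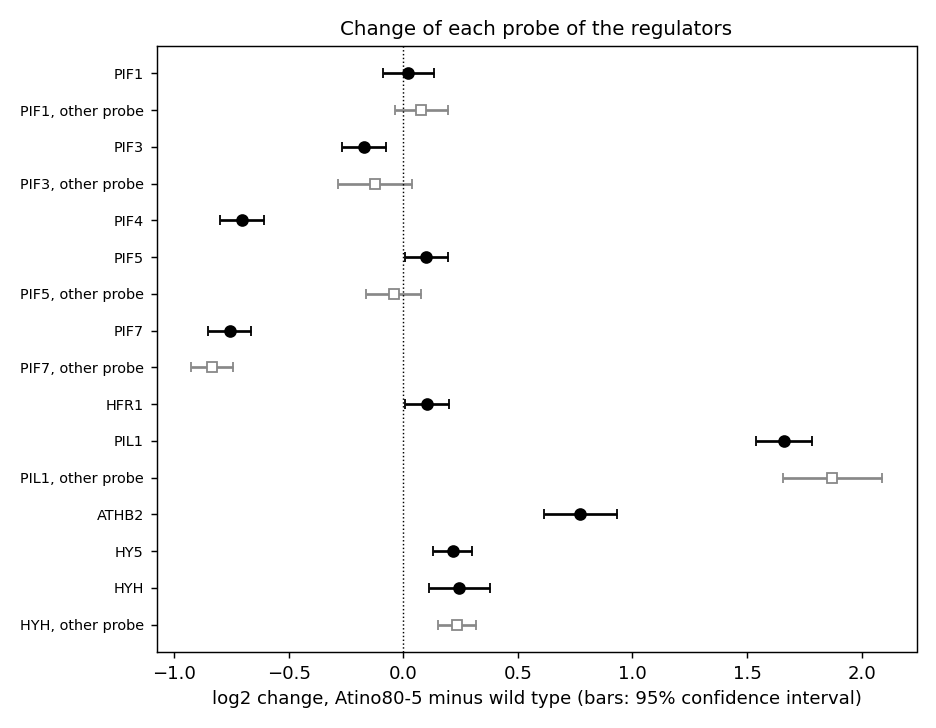
Points give the log2 change, Atino80-5 minus wild type, of every probe of the 10 regulators, with bars for the 95% confidence interval from limma. Filled circles are the probes that stand for the genes and open squares the other probes; the probes of PIF7, PIL1 and HYH lie on the same side of 0 as their partners, and those of PIF5 on opposite sides.

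Of the HLH and shade genes, PIL1 had the largest change of the 10 regulators. PIL1 (AT2G46970) gave 153, 149 and 168 in Atino80-5, against 47.7 and 48.2 in wild type. All 3 mutant arrays were about equally raised. It was 3.16-fold higher, a log2 change of 1.66 ± 0.046 (adjusted p = 5.12e-05, limma), and 2.65% of all genes changed by more. The dimmer probe gave 96.7, 87.3 and 106.9 in Atino80-5, against 25.2 and 26 in wild type, and was 3.66-fold higher. No array had either probe below the background limit, but their wild type signals were low. With normexp background correction, which adds an offset of 50 to every signal, the log2 change of PIL1 was 0.87 (adjusted p = 1.81e-05, limma).

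ATHB2 (AT4G16780), named HB-2 in the reference, rose as well. Its signals were 548, 635 and 592 in Atino80-5, against 338 and 333 in wild type, with the mutant arrays more spread than the wild type arrays and no overlap. It was 1.71-fold higher, with a 95% confidence interval of 1.53 to 1.91 (log2 change 0.77 ± 0.060, adjusted p = 0.00065, limma). Within slide 1 the log2 changes were 1.64 for PIL1 and 0.80 for ATHB2.

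HFR1 (AT1G02340) had a small change of the same sign as PIL1 and ATHB2, and whether it differed from theirs was not tested. Its signals were 1082, 1152 and 1121 in Atino80-5, against 1013 and 1003 in wild type. The mutant arrays lay slightly above both wild type arrays. The log2 change of 0.11 ± 0.036 was not called (adjusted p = 0.0632, limma), and its 95% confidence interval of 0.01 to 0.20 ends far below the changes of PIL1 and ATHB2. Within slide 1, without Atino80-5 array 3, it was 0.13 and passed (adjusted p = 0.0428, limma).

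Both bZIP genes rose slightly. HY5 (AT5G11260) gave 7165, 7556 and 7820 in Atino80-5, against 6138 and 6396 in wild type, without overlap. It was 1.16-fold higher (log2 change 0.22 ± 0.032, adjusted p = 0.00458, limma), and 0.21 within slide 1 on the log2 scale. HYH (AT3G17609) gave 6223, 6764 and 7363 in Atino80-5, against 5620 and 5457 in wild type. The mutant arrays were spread but all lay above wild type. It was 1.18-fold higher (log2 change 0.24 ± 0.050, adjusted p = 0.0137, limma), and 0.21 within slide 1 on the log2 scale. A second HYH probe, with 2534, 2558 and 2690 in Atino80-5 against 2099 and 2171 in wild type, also had a log2 change of 0.24. Without wild type array 1 or 2 the change of HYH was 0.26 or 0.23 and lost its call (adjusted p = 0.056 or 0.0787, limma). Of all genes, 43.3% changed by more than HYH and 47.7% by more than HY5.

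**Figure D3:**
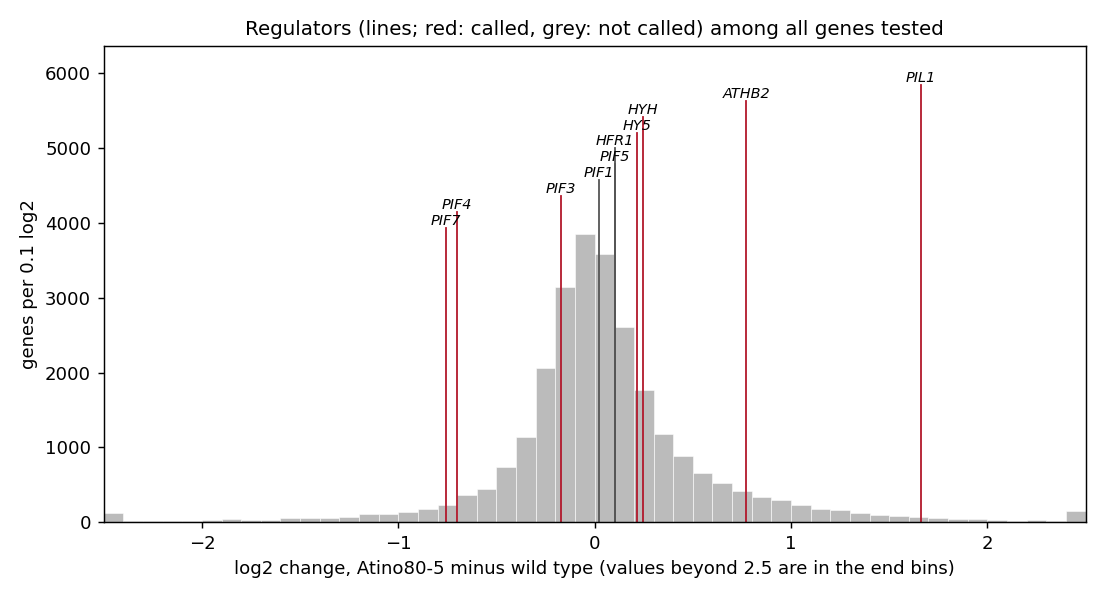
Grey bars count all genes tested by their log2 change, Atino80-5 minus wild type, in bins of 0.1, with values beyond 2.5 in the end bins. Lines mark the 10 regulators, red where called and grey where not; PIL1 stands in the right tail, PIF7, PIF4 and ATHB2 at the flanks, and the other 6 within the main body.

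In these whole seedlings, fewer cells of a type and less RNA per cell cannot be told apart. Of 15 root markers 12 were higher and 2 lower, beside 30.7% and 26.4% of all genes, shares that are also the background of the leaf markers below. The summed signal of the root markers, in units of each array's 75th percentile, was 3.58 to 3.61 in Atino80-5, against 3.0 and 3.08 in wild type. Bright genes weigh most in this sum. CASP1, named after its value was seen, had 3700, 3891 and 4182 in Atino80-5, against 1828 and 2065 in wild type. SCR, the brightest, had 7072, 7178 and 7266 in Atino80-5, against 7559 and 7523 in wild type. The lower ones were WOX5 and SCR, named after their values were seen, and SCR lost its call without Atino80-5 array 2 or 3. Of 12 green leaf markers 4 were lower and 1 higher, and their summed signal was 1044 to 1067 in Atino80-5, against 1176 and 1185 in wild type. The lower ones were LHCA2, PSAF, PSBO1 and LHCB4.1 and the higher one LHCB2.1, named after their values were seen. LHCB4.1 lost its call without Atino80-5 array 1 or 2, and LHCB2.1 with the mean of a gene's probes. The count of lower leaf markers ran from 2 with quantile normalization to 10 with the mean of a gene's probes. The count of higher ones was 3 and 0 there, so with quantile normalization more leaf markers were higher than lower. No marker of either list was below background on all 5 arrays. The part of these markers in the changes of the regulators was not tested.

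Beyond the 10 regulators, 96 other genes of light signalling were taken in 11 lists. Of the 95 measured, 47 were higher, 25 lower and 23 not called, with a median log2 change of 0.10. Over all genes 30.7% were higher and 26.4% lower, with a median of 0.01, so the count of lower list genes lies near the background. The same shares are the background of each list. Of 10 other PIF-clade and related bHLH genes, 6 were higher, 2 lower and 2 not called, with a median of 0.29. SPT, whose product restrains growth in the cold and shapes the carpel, had 2503, 2473 and 2662 in Atino80-5, against 1291 and 1279 in wild type, and was 1.92-fold higher (log2 change 0.94 ± 0.033). ALC, its close relative in fruit opening, and PRE1, an HLH gene that promotes elongation, rose 1.74-fold and 1.63-fold. The lower ones were PIL2 (PIF6) and PAR1, with log2 changes of -0.69 and -0.40, named after their values were seen.

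Of 9 class II HD-Zip relatives of ATHB2, 7 were higher, each by less than 1.5-fold, 1 was lower and 1 was not called, with a median of 0.30. HB4 rose by 0.49 ± 0.036, HAT9 by 0.47 ± 0.040 and HB17 by 0.58 ± 0.053 on the log2 scale. With normexp background correction HB17 had a log2 change of 0.34. The count of higher genes was 5 with the replicate number as a block in the fit, where HAT3 and HAT14, named after their values were seen, lost their calls. HAT22, named after its value was seen, was the lower one at -0.26, and it lost its call without wild type array 1 or 2 or without Atino80-5 array 2 or 3.

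Of 9 genes that PIFs are known to raise in shade, 7 were higher, 0 lower and 2 not called, with a median of 0.42. Before adjustment the limma count of lower genes at p under 0.05 was also 0. The auxin response gene IAA29 had 1002, 1094 and 1117 in Atino80-5, against 734 and 732 in wild type, a rise of 0.50 ± 0.034. IAA19, of the same family, rose by 0.42 ± 0.034. ST2A, a sulfotransferase gene of jasmonate metabolism, gave 110, 98.2 and 93.7 in Atino80-5, against 43.7 and 47.0 in wild type, and was 2.15-fold higher. With normexp background correction its log2 change of 1.10 became 0.56. These 3 genes were named for the smallest p in the list, so their separation between genotypes follows from that choice. Mutant and wild type arrays were fully separated for 7 of the 9 genes, beside 74.6% of all genes. Whether the falls of PIF4 and PIF7 bear on this list was not tested.

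Of 10 genes known as HY5 targets, 9 were higher, 0 lower (limma, also before adjustment at p under 0.05) and 1 not called, with a median of 0.56. The count was 6 without wild type array 2 or without Atino80-5 array 2 or 3. ELIP1, a light stress protein gene of the chloroplast, had 19265, 19445 and 20933 in Atino80-5, against 7076 and 7123 in wild type. It was 2.71-fold higher (log2 change 1.44 ± 0.030, adjusted p = 2.91e-05, limma). The flavonoid enzyme genes TT4 and F3H rose 1.60-fold and 1.51-fold. Of 6 genes of pigment synthesis, 4 were lower, 2 not called and 0 higher, with a median of -0.19. The count of higher genes was also 0 before adjustment at p under 0.05 in limma. The list is labelled PIF-repressed, but that label was not tested and may not hold for each of the 6 genes, PORA, PORB and POR C among them. The falls below are therefore not read as falls of genes that PIFs repress. PORB, for a protochlorophyllide oxidoreductase, fell by 0.38 ± 0.061, PORA by 0.47 ± 0.14 and GUN5, for a magnesium chelatase subunit, by 0.17 ± 0.042. The other lower gene was POR C at -0.20, named after its value was seen. PORB kept its call whichever array was left out. The count of lower genes was 2 without wild type array 1, and 1 without wild type array 2, Atino80-5 array 1 or Atino80-5 array 2.

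PHYD had the largest change of the 13 photoreceptor genes. This minor red light phytochrome gene had 1937, 1932 and 1998 in Atino80-5, against 4850 and 4447 in wild type. It fell by 1.29 ± 0.048 on the log2 scale, to 0.408 of the wild type level (adjusted p = 9.29e-05, limma). The blue light receptor gene FKF1 and the far-red receptor gene PHYA fell by 0.64 ± 0.032 and 0.34 ± 0.033. PHYB, the main red light receptor gene, was named after its value was seen, and its log2 change of -0.02 was not called (adjusted p = 0.644, limma). In all, 6 of 13 photoreceptor genes were lower and 3 higher, with a median of -0.03. The higher ones, PHYC, PHYE and UVR8, had changes of 0.10, 0.13 and 0.14, were named after their values were seen, and all lost their calls without wild type array 1 or 2 or without Atino80-5 array 2. The count of higher photoreceptor genes was 1 without Atino80-5 array 1 or 3, and 0 with median scaling or normexp background correction.

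Of 5 genes of phytochrome A signalling, 3 were lower, 0 higher and 2 not called, with a median of -0.34. Before adjustment the limma counts at p under 0.05 were 4 lower and 0 higher. FHL, whose product carries phytochrome A into the nucleus, had 131, 154 and 167 in Atino80-5, against 251 and 245 in wild type. It fell by 0.77 ± 0.081. FHY3 and FAR1, transposase-derived activators of FHL, fell by 0.34 ± 0.037 and 0.29 ± 0.047.

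Genes of the COP, DET, SPA and RUP repressors changed in both directions, 5 of 10 higher and 3 lower, with a median of 0.11. DET1 rose by 0.54 ± 0.056 and RUP1, a brake on the UV-B receptor, by 0.23 ± 0.027, and FUS9 (COP10) fell by 0.26 ± 0.027. The other higher genes were RUP2, SPA3 and SPA4, and the other lower ones DDB1A and SPA1, named after their values were seen. Without wild type array 1 or 2 the count of higher genes was 3. SPA1 also lost its call without either wild type array or without Atino80-5 array 2 or 3.

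Of 11 measured B-box genes, 4 were higher and 2 lower, with a median of 0.05. BBX32 had 1369, 1457 and 1596 in Atino80-5, against 819 and 808 in wild type, and rose 1.75-fold. BZS1 (BBX20), a partner of HY5, rose 1.70-fold and BBX31 1.56-fold. BBX30, named after its value was seen, was the other higher gene at 0.70. The lower ones, LZF1 and STH, had changes of -0.36 and -0.11 and were named after their values were seen. STH lost its call without wild type array 1 or 2 or without Atino80-5 array 2 or 3, and LZF1 without wild type array 2.

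Among the genes for DELLA proteins, which hold PIFs off DNA, RGL1, RGL2 and RGL3 rose by 0.29 ± 0.036, 0.32 ± 0.033 and 0.42 ± 0.047. GAI was the lower one of the 5 at -0.23, named after its value was seen, and the median was 0.29. With normexp background correction RGL3 had a log2 change of 0.20.

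The evening complex of ELF3, ELF4 and LUX is known to repress PIF4 and PIF5 transcription at night. LUX, named PCL1 in the reference, had 8366, 8185 and 8406 in Atino80-5, against 12347 and 12703 in wild type, and fell by 0.63 ± 0.041. The other lower genes, ELF4 and ELF3, had changes of -0.40 and -0.26, and BOA was higher at 0.24, named after their values were seen. The morning factor gene LHY had 1995, 2185 and 2313 in Atino80-5, against 919 and 935 in wild type, and CCA1 14300, 14981 and 15698 in Atino80-5, against 9579 and 9401 in wild type. Of the 7 genes 3 were higher and 3 lower, with a median of -0.08.

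**Figure D4:**
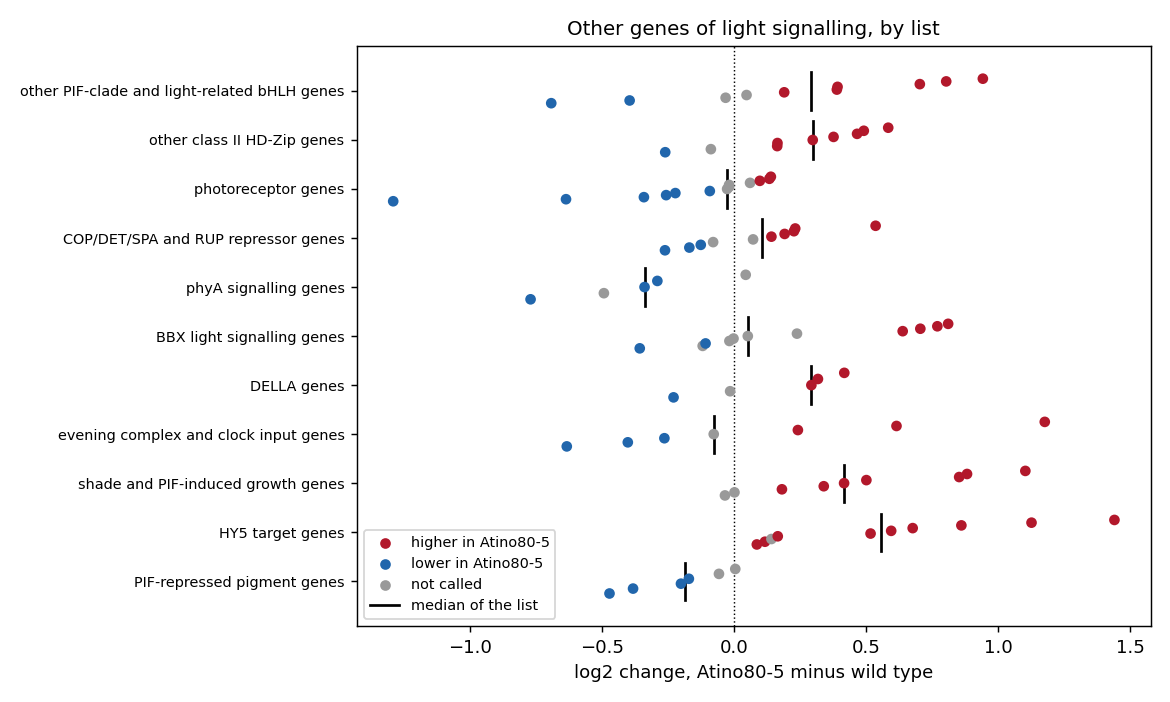
Each point is 1 gene of the 11 lists, with its log2 change, Atino80-5 minus wild type, on the horizontal axis. Red points were higher, blue points lower and grey points not called, and black lines mark list medians, which run from -0.34 for phytochrome A signalling to 0.56 for HY5 targets.

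The size of each change under the alternatives is drawn in the plot of processing alternatives. PIF4, PIF7, PIL1, ATHB2 and HY5 kept their direction and their call under all 17 alternatives. Under them the log2 change lay between -0.76 and -0.66 for PIF4, -0.82 and -0.73 for PIF7, 0.87 and 1.77 for PIL1, 0.69 and 0.80 for ATHB2, and 0.16 and 0.25 for HY5.

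**Figure D5:**
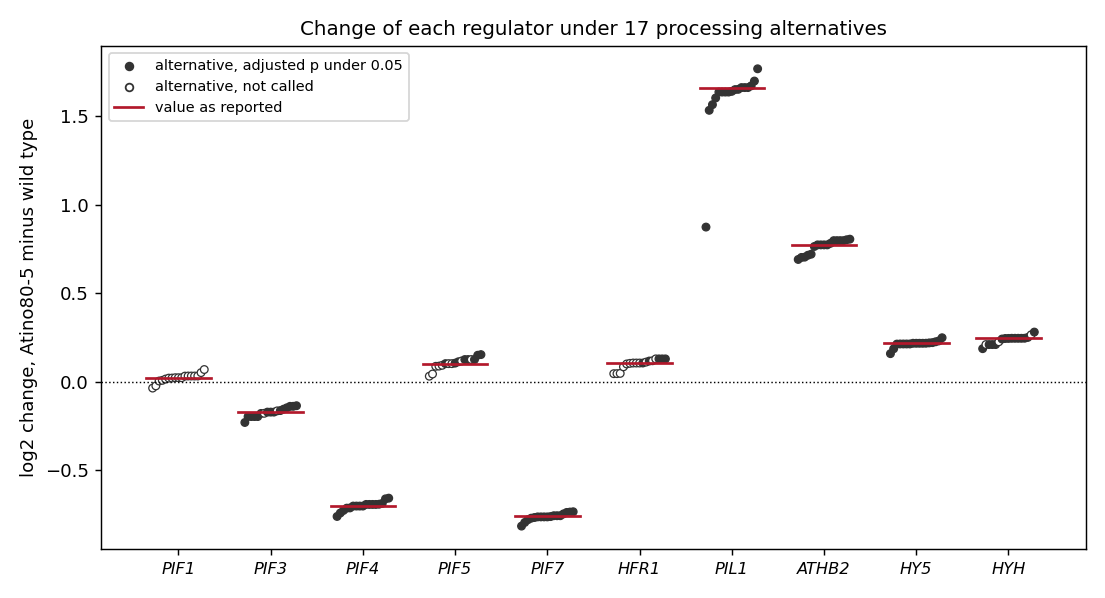
For each regulator, points give the log2 change, Atino80-5 minus wild type, under each of 17 alternatives, filled where the adjusted p was under 0.05. The red line is the value as reported; the 1 point far from its line is PIL1 at 0.87 with normexp background correction.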

How the data were processed

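RNA of 5 samples was measured on 1-colour Agilent arrays (Cy3). The deposited scanner files hold per-spot intensity values, background-subtracted and detrended within each array by Agilent Feature Extraction 10.7.3.1, per the file headers (9.1 per the submitters' processing notes), with no scaling between arrays. The authors' deposited value table holds log2 values that correlated with each array's log2 processed signal at 0.9994 or more; the column medians were 9.6216, 9.6213 and 9.6213 for Atino80-5 and 9.6208 and 9.6213 for wild type. With medians this close, the table was read as log2, quantile normalized and not centred, with no direction of its own. Other quantiles were not compared.

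Control spots, outlier-flagged spots and probes missing on an array were left out. Log2 signals were scaled by each array's 75th percentile. Probes well above background on at least 2 of 5 arrays were kept (35190). Accessions were matched to RefSeq transcripts of assembly TAIR10.1 for names only, since the design names another build: 34285 of 43603 probes matched 1 locus. All 16 probes of the 10 regulators were kept; the brightest stood for a gene in every alternative except the mean of probes. The fit was limma 3.58.1 in R 4.3.3 (lmFit, eBayes), with Benjamini-Hochberg adjustment over all genes, or over all probes where stated, and was tested on simulated data. The number of arrays limits the precision. The regulators and lists were chosen with earlier results of these data known. The text names all regulators, INO80 and up to 3 genes of each list with the smallest p; others are marked as named after their values were seen. Alternatives covered background correction, scaling, filters, probes, variance models, array weights, slide, replicate number, the authors' table, a minimum change of 2-fold and the removal of single arrays. Normexp used the median spot signal, because the mean signal column was not in the files.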

Additional observations from a re-analysis of the deposited data

How the results depend on the processing

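PIF1, which was not called, turned to -0.0364 with median scaling and to -0.024 without wild type replicate 2, and ran from -0.024 to 0.0684 as single arrays were left out. With a 2-fold minimum, 1 regulator was higher and 0 lower in limma, also at an unadjusted p, beside 1229 and 698 of all genes and 4 and 1 of the pathway genes. Leaving out 1 array at a time gave 3 to 6 higher and 2 to 3 lower regulators, 37 to 45 higher and 17 to 23 lower pathway genes, and 6310 to 7897 higher and 4877 to 6627 lower genes in all. Where wild type was left with 1 array, that array was assumed to vary like the others. PIF5 and HFR1 were called under 8 and 5 alternatives. Among these, the slide as a block, slide 1 alone and leaving out Atino80-5 array 3 are the same fit, counted each time. That fit gave 6 higher and 3 lower regulators. Array scaling by the median moved the share of calls that were higher to 42.9%, against 53.8%, with a median change over all genes of -0.05. The replicate number pairs at most 2 arrays per genotype, and deviations of same-numbered arrays correlated at 0.04 and 0.01. With 2 wild type arrays their deviations mirror each other, so this check cannot decide whether same-numbered arrays are paired. With the replicate number as a block, 16 pathway genes were lower and HYH, at 0.21, lost its call (adjusted p = 0.0627, limma).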

Other observations

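The genes next to the 10 regulators on the chromosome were taken as the nearest protein-coding locus on each side in the reference order. Of 20 neighbours 15 were measured, with 6 higher, 3 lower and 6 not called, a share of calls near the 57.2% of all genes, and a median log2 change of 0.07. Beside PIF4, which fell by 0.70, lies NAC042, a NAC transcription factor gene, which rose by 1.44 ± 0.090 (adjusted p = 0.000348, limma). Beside PIL1, which rose by 1.66, ASY3, a meiotic chromosome axis gene, rose by 0.35 ± 0.039. AT5G61280, beside PIF7, fell by 0.44 ± 0.096, while the gene on the other side, AT5G61260, was at 0.00 and not called. AT4G16790, beside ATHB2, fell by 0.29 ± 0.027 although ATHB2 rose, and both neighbours of HY5, AT5G11250 and OCP3, rose with it, by 0.30 ± 0.027 and 0.17 ± 0.044. AT3G59070, beside PIF5, fell by 0.84 ± 0.085. MYB61 rose by 0.41 ± 0.063 beside PIF3, which fell, and AT1G02350, beside HFR1, rose by 0.25 ± 0.050. For PIF1, PIF4, PIF5, PIL1 and ATHB2 the neighbour on the other side was not measured. These neighbours were named after their values were seen.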
